A study of Mus musculus with 62 samples.

Results

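Endocannabinoids are lipid messengers that neurons make on demand from their membranes. The genes described here are the brain's cannabinoid receptor and the enzymes that make and break down the ligands 2-arachidonoylglycerol (2-AG) and anandamide: Cnr1, Dagla, Daglb, Mgll, Abhd6, Abhd12, Napepld and Faah. They were selected by symbol, through the Ensembl identifiers of the count tables. All 8 were present among the 12483 genes of the deposited count tables, which are labelled as filtered. The table of the nucleus accumbens (NAc) and prefrontal cortex (PFC) held 11569 genes. That of the suprachiasmatic nucleus (SCN) held 12047 genes, and 11133 genes were in both.

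RNA was sequenced from 62 tissue punches of 26 C57BL/6J mice: 19 of the SCN, the hypothalamic pacemaker of daily rhythms, 26 of the NAc, the ventral striatum, and 17 of the PFC. All brains were taken at ZT6, 6 h after lights on, about 4 weeks after circadian rhythm disruption (CRD), a repeated reversal of the light cycle, or after a control paradigm with matched handling. The study's methods describe sequencing of mice of both sexes after CRD in adolescence and of their controls, while the deposited protocol also names CRD in adulthood. Labels name region and mouse but not CRD, sex or age at exposure, so libraries were grouped by region alone and no effect of CRD was tested.

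CB1, the receptor encoded by Cnr1, sits mainly on axon terminals and lowers transmitter release through inhibitory G proteins. 2-AG is made in postsynaptic membranes by diacylglycerol lipases, crosses the synapse backwards to CB1 and is hydrolysed mostly by monoacylglycerol lipase. Anandamide is released from N-acyl phosphatidylethanolamines, by NAPE-PLD among other routes, and is degraded by fatty acid amide hydrolase.

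The gene counts of a library summed to between 16496666 and 35389742 in the SCN, 28879724 and 60009482 in the NAc, and 31216225 and 50333579 in the PFC. Mitochondrial and ribosomal RNA genes took a large and variable share of these counts. The CPM values below are a gene's counts relative to a library size adjusted by TMM normalization, not to all counts of its library. For the 8 genes this scaling was over all 62 libraries and 11133 shared genes. The punches carried the markers of their regions, with limits. Summed over 9 markers of striatal projection neurons, NAc libraries reached 1269 to 3190 CPM and PFC libraries 49.8 to 125 CPM. Over 6 cortical glutamatergic neuron markers, PFC libraries held 776 to 909 CPM, and NAc libraries ranged from 10.9 to 443 CPM. Slc17a7, the vesicular glutamate transporter of cortical neurons, was in NAc libraries at 0.755% to 55.9% of its PFC median, with 13 of the 26 libraries over 10%. Scaled in the SCN table alone, SCN libraries held 89.2 to 463 CPM of the 9 SCN neuron markers. That table held 7 of the 9 striatal markers. On these the SCN library of mouse J1199 stood apart, with 663 CPM against a median of 119 CPM. Without it and the SCN library of mouse J1140, the same numbers of members were called, 7 against the NAc and 8 against the PFC. Of all 11133 genes, 7214 and 7259 were then called. The SCN libraries of mice J1157 and J1159 also stood apart, as the deepest of the SCN and with 20.5% and 24.8% of counts from mitochondrial rRNA against a median of 38.2%. Without them 7 and 8 members were again called, and 7240 and 7243 of all 11133 genes. In punches, fewer cells of a type and less RNA per cell cannot be told apart.

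All 8 genes were lower in the SCN than in the PFC. The median CPM of 6 of them was lowest in the SCN, among them Cnr1 and the 2-AG enzymes Dagla and Mgll. Napepld and Faah, the enzymes of anandamide, had their lowest median in the NAc, in Napepld without overlap with the SCN and in Faah with a difference from the SCN that did not pass the test under 3 alternatives. Whether the genes of the 2 ligands differ in this was not tested. Between the NAc and PFC, 7 of the 8 genes passed the test, with a Benjamini-Hochberg adjusted p under 0.05 in edgeR's quasi-likelihood test and a fold of at least 1.2, and all 7 were lower in the NAc. Among all 11569 genes tested, 21.7% were called lower and 23.7% higher in the NAc. The median log2 fold change was -0.59 over the 8 genes and 0.016 over all genes tested.

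**Figure D1:**
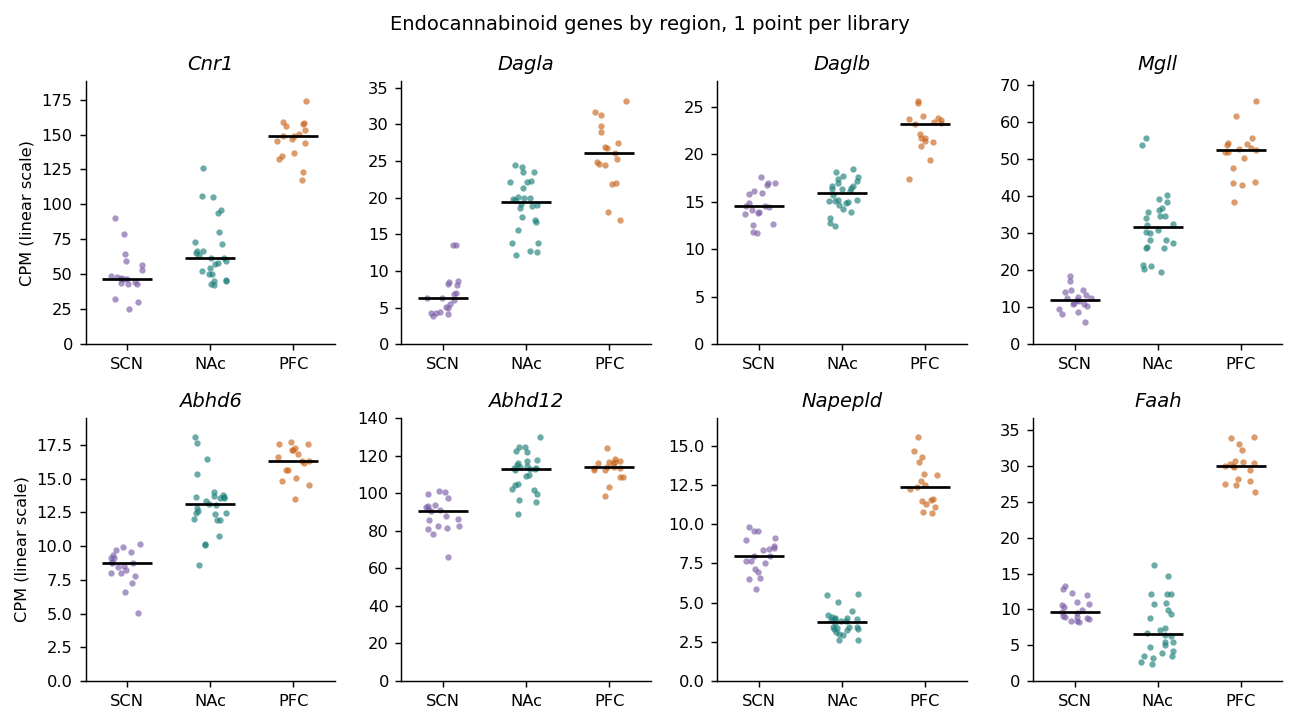
Level of each gene in every library, in CPM on a linear axis from 0, by region (SCN n = 19, NAc n = 26, PFC n = 17); points are libraries and bars are medians. The NAc and PFC points of Faah and Napepld do not overlap, and those of Abhd12 lie on top of each other.

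Cnr1 (ENSMUSG00000044288, chromosome 4 of GRCm38 from 33924593 to 33948831, plus strand) encodes CB1. It ranged from 117 to 174 CPM in the PFC (n = 17) around a median of 149 CPM. In the NAc (n = 26) it ranged from 42.3 to 126 CPM around a median of 61.8 CPM. In the SCN (n = 19) it ranged from 24.8 to 90.3 CPM around a median of 47.0 CPM. The NAc and PFC overlapped through a single NAc library, that of mouse J965, which was the highest of the NAc, and 25 of the 26 NAc libraries lay under every PFC library. Cnr1 was 2.18-fold lower in the NAc than in the PFC, a log2 fold change of -1.12 (SE 0.11, adjusted p = 8.7e-13), and was lower in 16 of the 17 mice with both regions. The exception was again mouse J965, with 126 CPM in the NAc and 117 CPM, the lowest PFC value, in the PFC. Its NAc library had 69.3% of counts from mitochondrial rRNA, the highest share of the NAc, where the median was 49.4%. The SCN was lower than the NAc by a log2 fold change of -0.42 (SE 0.11, adjusted p = 0.00074), in 13 of 19 mice, and the ranges of the SCN and NAc overlapped widely. Against the PFC, the SCN had a log2 fold change of -1.55 (SE 0.13, adjusted p = 1.6e-17) and no overlap.

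Comparisons with the SCN were fitted over the 11133 genes in both tables, and since the SCN was deposited in a table of its own, table and region cannot be told apart. Against the NAc, 33.1% of genes were called higher in the SCN and 31% lower, and against the PFC 33.7% were called higher and 31% lower. Of the 8 genes, 2 were called higher and 5 lower in the SCN than in the NAc, and all 8 were called lower in the SCN than in the PFC.

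The diacylglycerol lipases make 2-AG by cutting an acyl chain from diacylglycerol, and Dagla is the main form at adult brain synapses. Dagla (ENSMUSG00000035735, chromosome 19 from 10245265 to 10304877, minus strand) ranged from 16.96 to 33.3 CPM in the PFC around a median of 26.1 CPM. It ranged from 12.1 to 24.5 CPM in the NAc around a median of 19.4 CPM, and only 8 NAc libraries lay under every PFC library. In the SCN it ranged from 3.90 to 13.6 CPM around a median of 6.32 CPM, under every PFC library and, in 17 of 19 cases, under every NAc library. The highest SCN values, 13.6 and 13.5 CPM, came from mice J1159 and J1157, and the other 17 libraries lay between 3.90 and 8.61 CPM. The NAc was lower than the PFC by a log2 fold change of -0.45 (SE 0.083, adjusted p = 6.6e-06), in 16 of 17 mice. The ranges of mouse numbers may be batches. The fitted value was -0.78 among mice numbered up to J1021 and -0.21, no longer past the test, among those from J1140. The difference between the ranges, 0.57 (SE 0.15, adjusted p = 0.12), did not pass its own test. By that test 0% of genes were called, with 2279 of 11569 at an unadjusted p under 0.05 in edgeR and again 0 with DESeq2 size factors. Dagla was the 1 member under that unadjusted limit. From the NAc to the SCN the step was larger, with a log2 fold change of -1.45 (SE 0.12, adjusted p = 1.0e-17), a 2.73-fold difference present in 19 of 19 mice, and of -1.63 without mice J1157 and J1159.

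Daglb encodes the second diacylglycerol lipase, prominent in microglia and other cells outside neurons. Daglb (ENSMUSG00000039206, chromosome 5 from 143464584 to 143505942, plus strand) had medians of 23.2 CPM in the PFC (17.4 to 25.6 CPM), 15.9 CPM in the NAc (12.4 to 18.4 CPM) and 14.5 CPM in the SCN (11.6 to 17.6 CPM). It was lower in the NAc than in the PFC by a log2 fold change of -0.51 (SE 0.047, adjusted p = 2.6e-13), in 17 of 17 mice. The SCN and NAc were neighbours that did not pass the test, with a log2 fold change of -0.10 and a 95% interval from -0.20 to -0.0067 (adjusted p = 0.051). Of its exon bases, 24.1% lie opposite exons of Rac1, and without a stated strand setting, reads of the shared bases cannot be assigned to one gene. The balance of the lipases, as a log2 ratio of counts within a library, had a median of 0.21 in the PFC and 0.33 in the NAc but -1.18 in the SCN. The ratio of Dagla over Daglb was lower in the SCN than in the NAc in 19 of 19 mice, and than in the PFC in 12 of 12 mice. Between the NAc and PFC it had no common direction, being higher in the NAc in 9 of 17 mice.

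Monoacylglycerol lipase, encoded by Mgll, ends 2-AG signalling in the presynaptic terminal and in astrocytes. Mgll (ENSMUSG00000033174, chromosome 6 from 88724412 to 88828360, plus strand) ranged from 38.5 to 65.9 CPM in the PFC around a median of 52.6 CPM. It ranged from 19.5 to 55.9 CPM in the NAc around a median of 31.6 CPM, and from 6.13 to 18.5 CPM in the SCN around a median of 11.96 CPM. Every SCN library lay under every NAc library, and 22 of the 26 NAc libraries lay under every PFC library. The NAc had a log2 fold change of -0.67 against the PFC (SE 0.095, adjusted p = 4.3e-08), in 17 of 17 mice. The SCN had a log2 fold change of -1.41 against the NAc (SE 0.10, adjusted p = 1.4e-19) and of -2.09 against the PFC (SE 0.11, adjusted p = 5.8e-26). The last is a 4.24-fold difference, and no other of the 8 genes differed as much between the SCN and PFC in fitted value.

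Abhd6 and Abhd12 encode membrane serine hydrolases that take a smaller part of brain 2-AG hydrolysis, ABHD6 from the cytosolic side and ABHD12, also a lysophosphatidylserine lipase, from the lumenal side. Abhd6 (ENSMUSG00000025277, chromosome 14 from 8002902 to 8056763, plus strand) had medians of 16.3 CPM in the PFC (13.5 to 17.7 CPM), 13.1 CPM in the NAc (8.62 to 18.1 CPM) and 8.76 CPM in the SCN (5.07 to 10.2 CPM). Its NAc and PFC ranges overlapped, and its log2 fold change between them was -0.30 (SE 0.060, adjusted p = 2.5e-05), lower in 15 of 17 mice. Among mice numbered from J1140 that value was -0.23 and did not pass the test. Against the NAc the SCN was lower by a log2 fold change of -0.63 (SE 0.063, adjusted p = 7.3e-14), in 19 of 19 mice.

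Abhd12 (ENSMUSG00000032046, chromosome 2 from 150832493 to 150904741, minus strand) was the most even of the 8. It ranged from 98.8 to 124 CPM in the PFC, from 88.8 to 130 CPM in the NAc and from 66.1 to 101 CPM in the SCN, with medians of 114, 113 and 90.3 CPM. The NAc and PFC differed by a log2 fold change of -0.02, with a 95% interval from -0.096 to 0.055 (adjusted p = 0.66), and the NAc was lower in 10 of 17 mice. The SCN was lower than the NAc by a log2 fold change of -0.33 (SE 0.040, adjusted p = 4.3e-11), in 18 of 19 mice. Among mice numbered up to J1021 alone this value was -0.23 and did not pass the test.

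The 2-AG hydrolases differed from each other in the size of their regional differences. Within a library, the log2 ratio of Mgll over Abhd12 counts had a median of -1.11 in the PFC, -1.78 in the NAc and -2.97 in the SCN, and it was lower in the NAc than in the PFC in 17 of 17 mice. That of Mgll over Abhd6 had medians of 1.65, 1.24 and 0.48 in that order, and was lower in the NAc in 16 of 17 mice. Dagla over Mgll, synthesis against hydrolysis of 2-AG, varied less, with medians of -1.002 in the PFC, -0.73 in the NAc and -0.85 in the SCN. It was higher in the NAc than the PFC in 13 of 17 mice, and lower in the SCN than in the NAc in 12 of 19 mice.

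**Figure D2:**
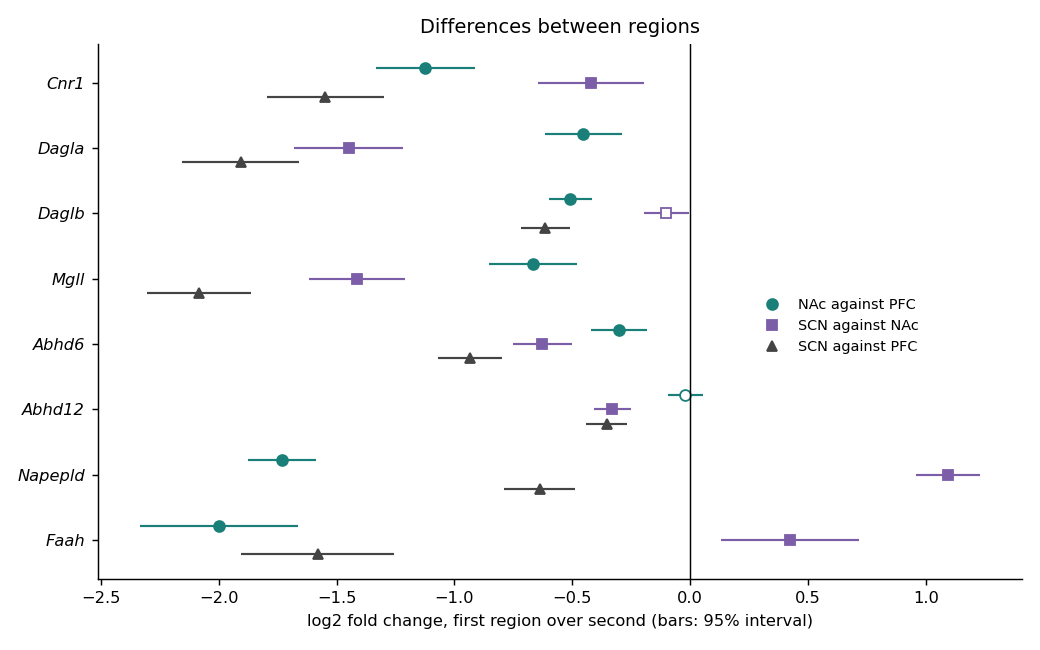
Log2 fold change of each gene between regions from edgeR's quasi-likelihood fits, with 95% intervals; filled symbols passed the test and open symbols did not. Every NAc against PFC and SCN against PFC value lies under 0, and only Napepld and Faah lie over 0 in the SCN against the NAc.

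Napepld encodes the phospholipase D that releases anandamide and other N-acyl ethanolamines. Napepld (ENSMUSG00000044968, chromosome 5 from 21662901 to 21701396, minus strand) ranged from 10.7 to 15.5 CPM in the PFC around a median of 12.4 CPM. It ranged from 5.89 to 9.82 CPM in the SCN around a median of 7.99 CPM, and from 2.60 to 5.56 CPM in the NAc around a median of 3.76 CPM. None of the regions overlapped. The NAc was 3.32-fold lower than the PFC, a log2 fold change of -1.73 (SE 0.073, adjusted p = 3.3e-25), in 17 of 17 mice. Unlike Dagla and Mgll, Napepld was higher in the SCN than in the NAc, with a log2 fold change of 1.09 (SE 0.070, adjusted p = 1.8e-22) in 19 of 19 mice. The SCN was lower than the PFC by a log2 fold change of -0.64 (SE 0.076, adjusted p = 2.1e-11). Counts behind these values were low in the NAc, from 59 to 357 per library.

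Faah encodes fatty acid amide hydrolase, which degrades anandamide. Faah (ENSMUSG00000034171, chromosome 4 from 115967145 to 116017926, minus strand) ranged from 26.4 to 34.0 CPM in the PFC around a median of 30.1 CPM, and from 8.19 to 13.2 CPM in the SCN around a median of 9.65 CPM. In the NAc it ranged from 2.39 to 16.2 CPM around a median of 6.54 CPM. The highest NAc library, that of mouse J1199, was also the one with the most cortical neuron marker RNA, and lay under the lowest PFC library, while the NAc range enclosed that of the SCN. Faah was 4.00-fold lower in the NAc than in the PFC, a log2 fold change of -2.00 (SE 0.17, adjusted p = 3.7e-14), in 17 of 17 mice. The SCN was lower than the PFC by a log2 fold change of -1.58 (SE 0.17, adjusted p = 2.9e-13). The SCN was above the NAc by 0.42 on the log2 scale (SE 0.15, adjusted p = 0.0088), in 11 of 19 mice. This last value was 0.26 and did not pass the test among mice numbered from J1140. Within a library, the log2 ratio of Napepld over Faah counts had a median of -1.28 in the PFC, -0.84 in the NAc and -0.30 in the SCN, and was higher in the NAc than the PFC in 14 of 17 mice.

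**Figure D3:**
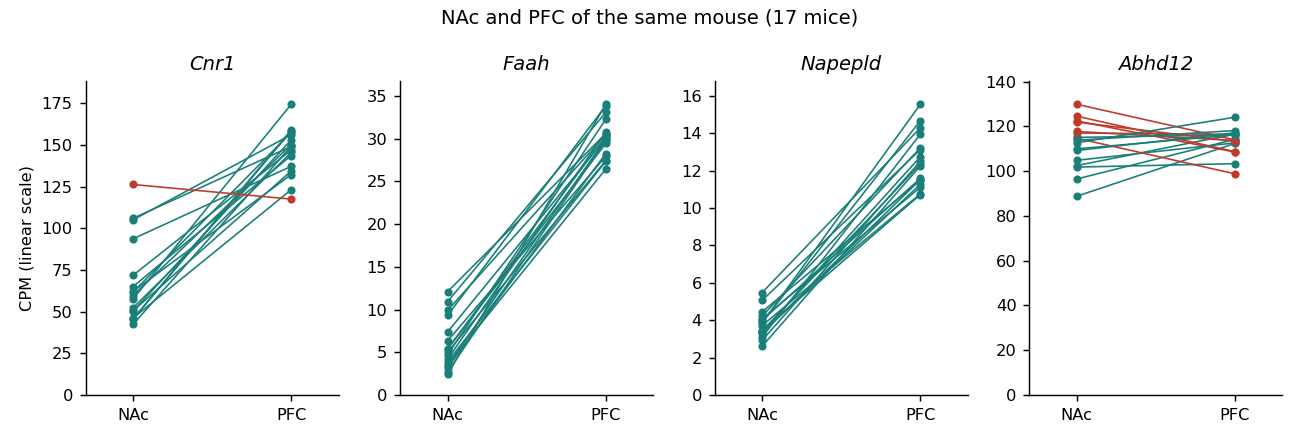
Levels of Cnr1, Faah, Napepld and Abhd12 in the NAc and PFC of the 17 mice with both regions, in CPM on linear axes from 0; each line is a mouse, green where the NAc is lower and red where it is higher. Cnr1 has 1 red line, Faah and Napepld have none, and Abhd12 has 7.

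Of the 8 genes, Napepld and Faah were those whose NAc and PFC libraries did not overlap. The share of all genes without such overlap was not determined, so this count is a description only. The 250 bases before their RefSeq start sites (GRCm38.p6, minus strand, read from 5′ to 3′) show what lies upstream of each. Capitals mark matches on either strand to GGGCGG, the GC box bound by Sp1-type factors, the window of Faah being chr4:116017925-116018174 and that of Napepld chr5:21701623-21701872.
Faah: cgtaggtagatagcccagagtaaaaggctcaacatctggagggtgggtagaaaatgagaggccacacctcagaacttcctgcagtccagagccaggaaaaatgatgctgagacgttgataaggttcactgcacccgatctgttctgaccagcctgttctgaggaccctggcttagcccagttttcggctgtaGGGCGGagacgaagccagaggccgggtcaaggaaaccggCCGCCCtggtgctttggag
Napepld: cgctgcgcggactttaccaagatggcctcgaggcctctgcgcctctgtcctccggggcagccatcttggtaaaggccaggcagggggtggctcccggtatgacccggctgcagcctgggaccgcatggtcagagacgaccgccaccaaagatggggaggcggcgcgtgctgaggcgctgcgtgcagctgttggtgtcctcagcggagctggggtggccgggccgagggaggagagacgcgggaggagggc
The window of Faah held 2 matches and was 55.6% G and C, and that of Napepld held 0 matches and was 69.6% G and C. A match occurred in 32.7% of the 32851 windows of this length. CACGTG, the E-box that the clock proteins CLOCK and BMAL1 bind, was in neither window and in 6.02% of all windows. RefSeq windows were matched for 6 of the 8 genes, 10 windows in all, and an E-box was present in 1 of the windows of Cnr1 and in 1 of those of Mgll. Dagla and Abhd12 were not matched.

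Per kilobase of exon, the order of the genes also differed between regions. The length used is that of all annotated exons of a gene merged, at 2365 bases for Abhd6, 2823 for Abhd12, 7834 for Faah and 9567 for Daglb. Transcripts present in the punches may be shorter, so comparisons between genes depend on these lengths. In every region Abhd12 and then Cnr1 had the highest median levels, at 40.4 and 23.1 CPM per kb in the PFC, 40.1 and 9.60 CPM per kb in the NAc, and 32.0 and 7.29 CPM per kb in the SCN. Mgll followed in the PFC with 10.4 CPM per kb and in the NAc with 6.23 CPM per kb, but in the SCN Abhd6, at 3.70 CPM per kb, stood above Mgll, at 2.36 CPM per kb. The lowest were Daglb in the PFC with 2.42 CPM per kb, Faah in the NAc with 0.835 CPM per kb, and Dagla in the SCN with 1.10 CPM per kb. Napepld, next to Faah in the NAc, stood at 0.950 CPM per kb with overlapping libraries. Daglb in the PFC, at 1.81 to 2.68 CPM per kb, lay under every PFC value of Napepld, the next gene. With 24.1% of Daglb exon bases opposite Rac1 and no strand setting given, its level per kb and its place in this order are uncertain.

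The spread between libraries of a region was uneven among the 8 genes. Faah had a standard deviation of log2 CPM of 0.78 in the NAc, larger than that of 98.1% of genes. In the PFC its standard deviation was 0.11, larger than that of 11.9% of genes, and in the SCN 0.22. Cnr1 varied with a standard deviation of 0.43 in the NAc and 0.44 in the SCN, and of 0.14 in the PFC. Dagla was the most variable of the 8 in the SCN, at 0.53, but without mice J1157 and J1159 it was at 0.39, under the 0.43 of Cnr1. Abhd12 had the smallest spread in each region, at 0.15, 0.13 and 0.076 in the SCN, NAc and PFC. The median over all genes was 0.28, 0.25 and 0.18.

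Faah in the NAc moved with the content of cortical neuron markers in the punch. Its slope on the mean z-score of 6 cortical glutamatergic neuron markers over the 26 NAc libraries was 0.67 log2 per standard deviation of the score (SE 0.073, adjusted p = 5.4e-08). Mgll had a slope of 0.23 (SE 0.061, adjusted p = 0.0041) and Abhd6 of 0.10 (SE 0.043, adjusted p = 0.046), and these 3 were the members called, where 44.7% of all genes were. Abhd6 lost its call with the range as a covariate (0.10, adjusted p = 0.065), without the 2 libraries farthest in score (0.11, adjusted p = 0.084) and in each range of mouse numbers, and Mgll, at 0.14, in the upper range. Cnr1 had a slope of 0.04 (SE 0.077, adjusted p = 0.66), which was -0.088 in the lower range and 0.21, past the test, without the 2 libraries farthest in score, one of them that of mouse J965. Napepld had a slope of 0.07 (SE 0.057, adjusted p = 0.32). Faah was lowest in the NAc libraries of mice J1018, J1019 and J965, at 2.39, 2.69 and 3.18 CPM. These had low scores (-0.90, -1.55 and -1.97) and 65.3%, 68.7% and 69.3% of counts from mitochondrial rRNA, against a NAc median of 49.4%. Those of mice J1017 and J1165, with 59.9% and 58.6%, had scores of 0.67 and 0.17 and 6.39 and 6.33 CPM. The parts of cortical tissue in the punch and of the mitochondrial rRNA share in these slopes were not tested.

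**Figure D4:**
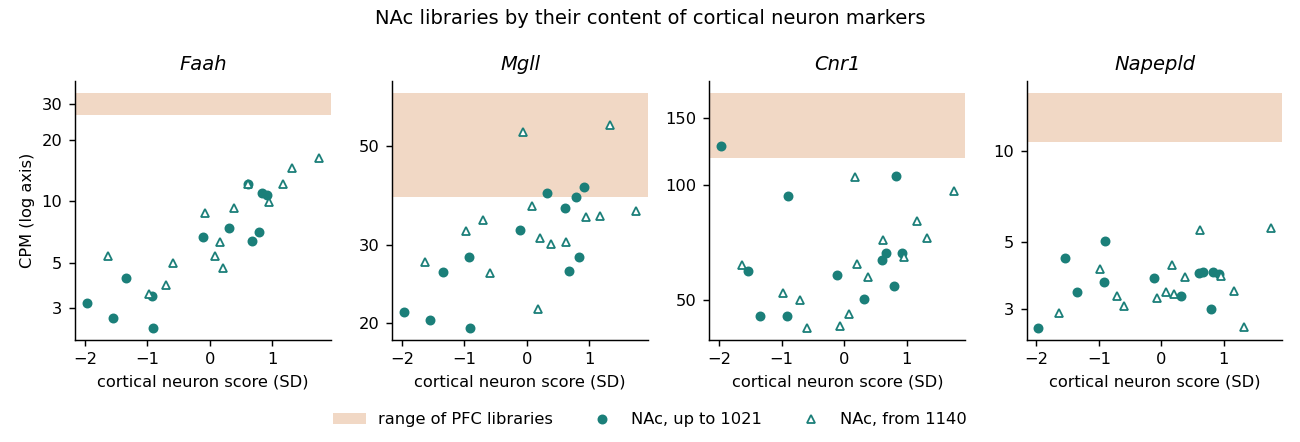
Level in CPM (log axis) of Faah, Mgll, Cnr1 and Napepld in the 26 NAc libraries against the cortical neuron score of the library in standard deviations; filled circles are mice numbered up to J1021, open triangles those from J1140, and the band is the range of the 17 PFC libraries. Faah runs from 2.39 CPM at a low score to 16.2 CPM at the highest score and stays under the PFC band, and Napepld shows no such slope.

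Without the NAc libraries over 10% of the PFC median of Slc17a7, the same 7 genes were called between the NAc and PFC. Of all 11569 genes, 5969 were called there, against 5254 with every library. None of the 7 differences was smaller in size other than that of Daglb, at -0.48. The 13 NAc libraries that remained include those of mice J1018, J1019 and J965, high in mitochondrial rRNA. In the 13, Faah ranged from 2.39 to 8.78 CPM around a median of 4.20 CPM. Its log2 fold change against the PFC was -2.67, a 6.36-fold difference. Against the SCN, Faah then was 1.10 higher in the SCN on the log2 scale, against 0.42 with every library. Cnr1 was at -1.19, Mgll at -0.81, Napepld at -1.77 and Abhd12 at -0.01 between the NAc and PFC in those libraries.

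Other cell types also differed between the regions. Oligodendrocyte markers were higher in NAc than PFC libraries in 8 of 8 cases. Their sums were 541 to 1365 CPM in the NAc and 116 to 384 CPM in the PFC. The SCN sums, 353 to 2900 CPM, were scaled in the SCN table alone. Of 6 genes listed as GABAergic interneuron markers, 5 were lower in the NAc than in the PFC and 1 did not pass. Cck differed most, with a log2 fold change of -3.19, and Sst, Pvalb, Npy and Lamp5 lay between -1.27 and -0.77. The 6 genes, Cck included, summed to 47.0 to 182 CPM in the NAc and 272 to 384 CPM in the PFC. Whether they mark interneurons alone in these punches was not tested. Also lower in the NAc were 3 of 8 astrocyte and 2 of 4 vascular markers, with none higher, and no microglia marker passed. No member was called in its slope on an oligodendrocyte score within a region by edgeR, nor with DESeq2 size factors. There, 2.62% of genes were called for the SCN, 0.631% for the NAc and 0.294% for the PFC, and at an unadjusted p under 0.05 the members passing numbered 0 for the SCN, 0 for the NAc and 1, Cnr1, for the PFC. On the SCN neuron score, edgeR called 0 of the 8 and 3.58% of all genes, with 0 members again under DESeq2 size factors. Unadjusted, 2 members had a p under 0.05, with slopes of -0.20 for Cnr1 (SE 0.092) and -0.076 for Abhd12 (SE 0.034).

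The wider pathway was more mixed than the 8 genes. Of 42 other genes of endocannabinoid signalling tested between the NAc and PFC, 4 were higher in the NAc, 17 were lower and 21 did not pass. Their median log2 fold change was -0.15. Among all genes tested, 23.7% were called higher and 21.7% lower in the NAc, and these shares also stand beside the smaller groups that follow. Of 5 proteins that bind CB1, 2 were lower in the NAc and 3 did not pass. Cnrip1, the cannabinoid receptor interacting protein, had a log2 fold change of -1.18 (SE 0.075, adjusted p = 1.8e-18), close in size to the -1.12 of Cnr1, and Arrb2, a beta-arrestin that binds activated receptors, one of -0.40. In the SCN, Cnrip1 and Cnr1 parted, Cnrip1 being 0.57 higher than in the NAc on the log2 scale (SE 0.070, adjusted p = 5.1e-11), and Cnr1 0.42 lower.

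Upstream of the diacylglycerol lipases, 1 of 8 genes was higher in NAc than PFC libraries, 3 were lower and 4 did not pass. The higher one was Grm5, a metabotropic glutamate receptor that drives 2-AG synthesis through phospholipase C, with a log2 fold change of 0.83 (SE 0.067). Homer2, a scaffold that ties this receptor to its effectors, was at -2.35 (SE 0.13), and Plcb4, a phospholipase C, at -1.30 (SE 0.17). In the SCN, 3 of 7 were higher and 4 lower than in the NAc. Farthest apart there were Homer1 at -3.29 (SE 0.14) and Camk2a at -2.33 (SE 0.11) among the lower, and Plcb4 at 1.54 (SE 0.16) and Plcb3 at 0.49 (SE 0.12) among the higher.

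Downstream of CB1, 1 of 14 G proteins and effectors was higher in the NAc than the PFC, 8 were lower and 5 did not pass. The higher one was Adcy5, the adenylyl cyclase of striatal neurons, with a log2 fold change of 3.004 (SE 0.11, adjusted p = 8.1e-28). Adcy1, a calmodulin-stimulated cyclase, was lower at -2.08 (SE 0.11), and Kcnj6, a subunit of the potassium channel that inhibitory G proteins open, at -1.72 (SE 0.13). Against the NAc, 6 of the 14 were higher and 5 lower in the SCN. Adcy8 at 1.87 and Kcnj9 at 0.87 stood highest there, and Adcy5 at -2.61 and Adcy1 at -2.39 lowest.

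Among other enzymes of N-acyl ethanolamine synthesis, 1 of 6 was higher and 1 lower in the NAc than in the PFC. The higher one was Pla2g16, a phospholipase and acyltransferase, with a log2 fold change of 0.99 (SE 0.054), and the lower was Gde1, a glycerophosphodiesterase, at -0.40 (SE 0.061). Of 5 other hydrolases and oxidases, Ptgs2, the inducible cyclooxygenase that also oxidises 2-AG and anandamide, was lower at -2.62 (SE 0.15), Naaa, an N-acyl ethanolamine acid amidase, was higher at 0.29 (SE 0.066), and 3 did not pass. Of 4 intracellular carriers, the fatty acid binding proteins Fabp3 and Fabp7 were lower, at -0.92 (SE 0.084) and -0.46 (SE 0.091), and 2 did not pass. Over all these groups, the SCN had 16 of 40 genes higher and 15 lower than the NAc, and 11 higher and 21 lower than the PFC. Among all genes tested, 33.1% were called higher and 31% lower than in the NAc. Against the PFC, 33.7% of all genes were called higher and 31% lower. Of 7 further receptors and targets, among them Cnr2, Gpr55 and Trpv1, 0 were tested, since none was in the filtered count tables.

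**Figure D5:**
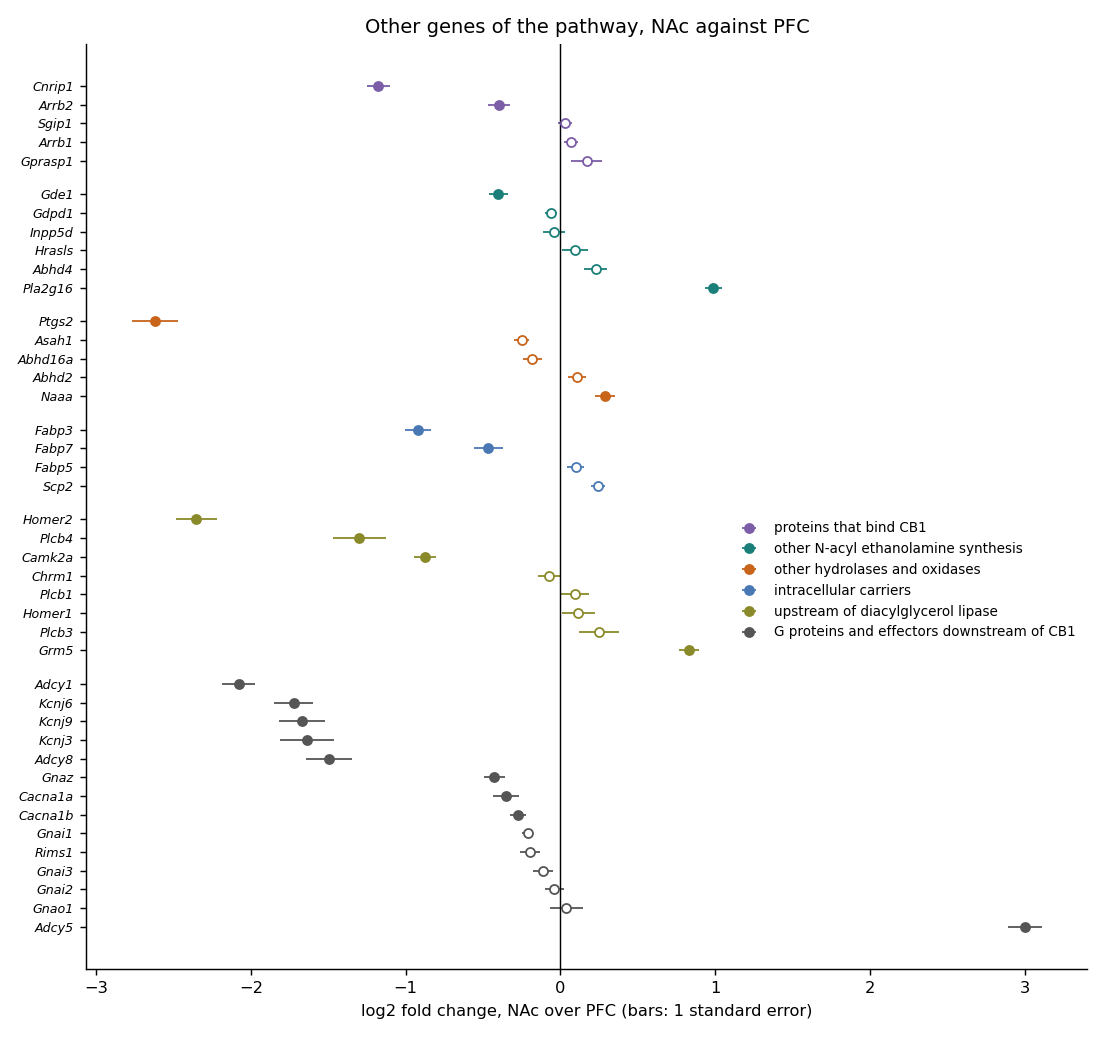
Log2 fold change between the NAc and PFC, with 1 standard error, of 42 other genes of endocannabinoid signalling, grouped by role; filled points passed the test. Adcy5, at 3.004, stands alone on the right, and Ptgs2, at -2.62, and Homer2, at -2.35, lie farthest to the left.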

How the data were processed

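The authors made libraries from 10 ng of RNA per punch with a SMART-Seq HT kit, sequenced paired ends, used HISAT2 for alignment to Ensembl GRCm38 and HTSeq, in union mode, for gene counts. The deposited values are raw counts with no normalization, the NAc and PFC in one table and the SCN in another. Both tables are labelled as filtered, and the paper describes a filter on expression and the removal of Y-chromosome genes. Genes left out of the tables could not be tested. The strand setting of the counting is not given in the sources used here.

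Counts were tested with edgeR 4.0.16 in R 4.3.3, by the quasi-likelihood test with TMM normalization. filterByExpr removed no row. A call required a Benjamini-Hochberg adjusted p under 0.05, over all genes tested, and, between regions, a fold of at least 1.2. A standard error is the absolute log2 fold change over the square root of F, and 95% intervals are 1.96 standard errors to each side. CPM in the text were scaled over all 62 libraries and 11133 shared genes. Exon lengths came from GENCODE M21, with the exons of all annotated transcripts of a gene merged. Scores are mean z-scores of log2 CPM (prior count 2). The scripts were tested on simulated data. Python was 3.11.15 with numpy 2.4.6 and pandas 2.3.3.

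Each library is a separate punch, and 0 pairs within a region had identical counts. Libraries of a mouse come from the same animal, so the mouse number pairs them. The deviations of a mouse's libraries from their region means correlated with a median r of -0.0035 for the NAc and PFC (8 of 17 mice over 0.1), 0.0014 for the SCN and NAc (3 of 19) and 0.099 for the SCN and PFC (6 of 12). Mouse numbers leave a gap between J1021 and J1140 and were split there into a lower and an upper range.

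The genes and lists were chosen with earlier results of these data known. Named were all 8 members, up to 2 called genes per direction with the largest fold in each wider list, and the 3 genes most correlated with each member. A few genes of these lists are not reported here and stay out of the list counts. Alternatives were DESeq2 1.42.0, its size factors, other filters (none, and a mean of at least 5 CPM), the mouse as a block, each range, the range as a covariate, and leaving out mitochondrial and ribosomal RNA genes, NAc libraries rich in Slc17a7, or SCN libraries of mice J1199 and J1140. Slopes within ranges, a correction for GC content and leaving out the SCN libraries of mice J1157 and J1159 were chosen after seeing the data.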

Additional observations from a re-analysis of the deposited data

How the results depend on the processing

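Of 344 alternative values of the members between regions, 335 kept their direction and their side of the threshold. Abhd12 between the NAc and PFC, not called, turned positive among mice from J1140 (0.0019), with GC correction (0.042) and with both GC correction and the mouse block (0.087). Lost calls were Dagla (-0.21) and Abhd6 (-0.23) in the NAc against the PFC among mice from J1140, Abhd12 (-0.23) in the SCN against the NAc among mice up to J1021, and Faah in the SCN against the NAc, at 0.32 in the mice with both regions without the block, 0.26 among mice from J1140 and 0.34 with block and GC correction. The cause was not tested. With the mouse block alone, 5681 genes and 7 members were called between the NAc and PFC, 7039 and 7 between the SCN and NAc, and 7153 and 8 between the SCN and PFC. The block changed no call of a member, and Faah stood at -2.49 between the NAc and PFC. In the NAc, slopes on the cortical score were called for 2621 genes in the lower range and 1655 genes and 1 member in the upper, against 5177 genes and 3 members, with fewer libraries in each. The Cnr1 slope reversed in the lower range (-0.088). Slopes on the SCN neuron score were called for 156 genes without the 2 libraries farthest in score, 126 in the lower range, and 235 both in the upper range and without mice J1199 and J1140, against 431. Without the 2 farthest libraries, oligodendrocyte slopes were called for 182 genes (SCN), 35 (NAc) and 7 (PFC), against 316, 73 and 34, and for 499 genes in the SCN without mice J1157 and J1159. CPM levels rise when mitochondrial and ribosomal RNA genes are left out, and 26 of 48 rescaled medians moved by over 1 standard deviation. Depth limits Napepld and Faah in the NAc, with lowest counts of 59 and 66, and Dagla in the SCN, with a lowest count of 70 and a median of 137.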

Other observations

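Over the 43 NAc and PFC libraries, with each region's mean taken away, the genes most alike to each member in log2 CPM differed in kind. Faah followed Syt13, a synaptotagmin, with a Pearson r of 0.94, Olfm1 with 0.94 and Slitrk1 with 0.93. These relations came from the NAc, where Faah and Syt13 had an r of 0.96, while in the PFC it was -0.34 and in the SCN 0.11 (n = 19). Dagla followed Mast3, a kinase, with 0.90, Grin1, the obligatory NMDA receptor subunit, with 0.89 and D430041D05Rik with 0.88, and kept an r of 0.75, 0.84 and 0.89 with them in the SCN. Mgll followed Lamp1, Tbc1d9b and Kif5a, each near 0.87. Cnr1 followed Azin1 and Bzw1 with 0.70 and 0.69, and its r with them in the SCN was 0.27 and 0.43. Daglb had B4galt2 (0.76), Selenow and Lancl1, Abhd6 had Reep2 (0.75) and Trappc10, Abhd12 had Gpx4 (0.78), Mpnd and Cox6a1, and Napepld had Idnk (0.63), Tfrc and Elp5. These values are descriptions, and the libraries share scaling, punch content and RNA quality.

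The longest transcripts of the members differ in GC content. Cnr1, at 44.9%, and Napepld, at 45.8%, lie in the lower part of the 12454 genes with a transcript, whose quartiles are 44.7% and 54.3%, and Dagla, at 58.8%, lies above 92.9% of them. Azin1 and Bzw1, alike to Cnr1, were at 39.3% and 41.6%, and Mast3 and Grin1, most like Dagla, at 59.9% and 59.4%. The part of GC content in these relations was not tested. With a GC correction, Cnr1 was at -1.17 and Dagla at -0.38 between the NAc and PFC, against -1.12 and -0.45 without it.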
